A study of Homo sapiens with 8 samples.

Results

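TBRG1 is the locus that encodes NIAM, a protein named for its contacts with ARF and MDM2. It was examined on Ago2-RIP-Chip arrays of ST486 cells, together with 6 genes of the ARF-MDM2-p53 pathway. These were MDM2, MDM4, CDKN2A, NPM1, KAT5 and PPM1D. Members were the non-control probes whose RefSeq identifier on the array maps to one of these 7 genes. They numbered 15 of 41000 probes, for 7 of the 16557 genes that could be given a symbol. 14 of the 15 probes passed the filters on detection and on the difference between dyes, and the MDM2 probe did not. TBRG1 was picked with its ratios on these arrays known, so the values are a description and were not tested.

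ST486 is an established line of Burkitt lymphoma (BL), a germinal center B-cell tumor. EV-ST486 cells carried the empty retroviral MXW-PGK-IRES-GFP vector. MiR-155-ST486 cells carried the same vector with the miR-155 precursor and its flanking sequence. Both were bulk transduced populations sorted for GFP, and from each the RNA of the whole lysate (total or T fraction) and the RNA pulled down with an antibody to Ago2 (IP fraction) were profiled. Cy3 and Cy5 cRNA was made from each of the 4 RNA samples, and the IP and total fractions of a population were hybridized together, once in each dye orientation, on 4 arrays. There was thus 1 RNA sample per condition. The spread between the 2 labellings of a sample measures labelling and hybridization only, and no p-value is given. The arrays lay on 2 slides, and 0 of these held both vectors, so slide and vector cannot be told apart.

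Between 14094 and 22161 probes were detected per channel, that is, their signal was well above background, positive and significant. The B-cell label of the line was checked against its markers, of which 6 of 8 probes were detected in all 8 channels and the PAX5 probe in 0. All 8 probes of T and NK cell markers were detected in 0 channels, as were 3 of the 6 myeloid and 5 of the 6 epithelial or stromal probes. The remaining myeloid and epithelial or stromal probes were detected in at least 1 channel, and 0 of them passed the filters. The probe of MIR155HG, the host transcript of miR-155, was detected in 0 of the 4 EV channels and in 3 of the 4 miR-155 channels, 2 of the total and 1 of the IP fraction. Its signal was at least 1.40-fold higher with miR-155 in the total fraction. The value for the IP fraction, 1.37-fold, includes 1 miR-155 labelling not well above background and is not a firm bound. Where this probe lies relative to the construct was not tested.

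As background, p53 is held in check by the ubiquitin ligase MDM2 and its relative MDM4. The ARF protein of the CDKN2A locus binds MDM2 and frees p53, and NPM1 keeps ARF in the nucleolus. NIAM was named for binding both ARF and MDM2, and it also associates with the acetyltransferase TIP60, the product of KAT5. A microRNA guides Ago2 to transcripts that pair with its seed, so transcripts under its control are drawn into the Ago2-IP fraction, and miR-155 is low in BL and high in most other B-cell lymphomas.

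The mature strands of the microRNA that distinguishes the vectors are shown because the enrichment of a transcript is measured against them, with the seed (bases 2 to 8) in capitals. Sequences are those of RefSeq, human build GRCh38.p14, plus strand, 5′ to 3′. The 5p strand lies at chr21:25573983-25574006 and the 3p strand at chr21:25574022-25574043.
hsa-miR-155-5p: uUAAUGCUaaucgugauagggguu
hsa-miR-155-3p: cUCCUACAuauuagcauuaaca
A site that pairs with the whole 5p seed and carries an A opposite its first base reads AGCAUUAA. Sites were not searched in the members' transcripts, whose sequences were not used here.

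The TBRG1 locus had 1 probe with the strongest shift of all members and 1 probe that stayed level. Both probes carry the identifier NM_032811. By the study's description probe 1 (A_24_P21752) reads the coding NIAM transcript and a non-coding TBRG1 transcript, and probe 2 (A_23_P98463) reads NIAM alone. Each probe has 1 spot per array, so every channel value below is that of 1 spot. Values are quantile-normalized signals in array units, and levels of different probes cannot be compared.

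TBRG1 probe 2 had total signals of 116 and 145 with EV and of 74.7 and 86.3 with miR-155, in Cy3 and Cy5. Its IP signals were 274 and 284 with EV and 921 and 938 with miR-155. The 4 conditions did not overlap, and the order was miR-155 total, EV total, EV IP and miR-155 IP from lowest to highest. The total signal was thus lower with miR-155, by 0.69 on the log2 scale (0.63 in Cy3 and 0.75 in Cy5), while the IP signal was higher by 1.74 (1.75 and 1.73). A signal is an average over the sorted cells, so less RNA per cell and fewer cells with the transcript cannot be told apart.

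The IP/T ratio of TBRG1 probe 2, the IP signal over the total signal of the same cells, was 2.15 in EV-ST486 cells and 11.6 in miR-155-ST486. By array it was 1.89 with IP RNA in Cy3 and 2.45 with IP RNA in Cy5 in EV-ST486, and 10.7 and 12.55 in miR-155-ST486. The limit of 2 that the study sets for enrichment was therefore met by 1 of the 2 EV arrays and by both miR-155 arrays. The ratio of these IP/T ratios (miR-155/EV ratio) was 5.38, with 5.65 and 5.12 in the dye orientations. Among the 15529 probes kept, probe 2 ranked 2 for the miR-155/EV ratio, 104 for IP/T in miR-155-ST486 and 1662 for IP/T in EV-ST486. It ranked 16 for the rise of the IP signal and 348 for the fall of the total signal. Its signal is dim. Among the 2176 kept probes within 0.5 log2 units of its mean signal, 24 (1.1%) had a miR-155/EV ratio reaching 2. Of these 2176, 0 had one as high as its own, which its rank of 2 among all kept probes largely fixed in advance. That mean is over the 8 channels (7.83) and lies above the log2 total signals of probe 2, 7.02 with EV and 6.33 with miR-155. The 2176 probes are thus not matched to its dim total signals. The orientations of probe 2 differed by 0.14 log2 units, against a median of 0.41 among those probes. The ratio was 1.33, 2.28 or 2.68 under the 3 normexp settings, which took median spot signals, corrected the background with an offset of 50 and, in the last, used loess and Aquantile in place of quantile normalization. How far each of these changes moved the ratio was not tested.

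TBRG1 probe 1 had total signals of 1019 and 990.0 with EV and of 895 and 940.2 with miR-155. Its IP signals were 925 and 940.2 with EV and 848 and 902 with miR-155. The 8 values lay between 848 and 1019. Within each fraction the miR-155 signals were slightly below the EV signals. IP/T was 0.929 in EV-ST486 cells and 0.953 in miR-155-ST486, and the miR-155/EV ratio was 1.03, with 0.965 and 1.09 in the dye orientations, on either side of 1. Total and IP signal were lower with miR-155 by 0.13 and 0.09 on the log2 scale.

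**Figure D1:**
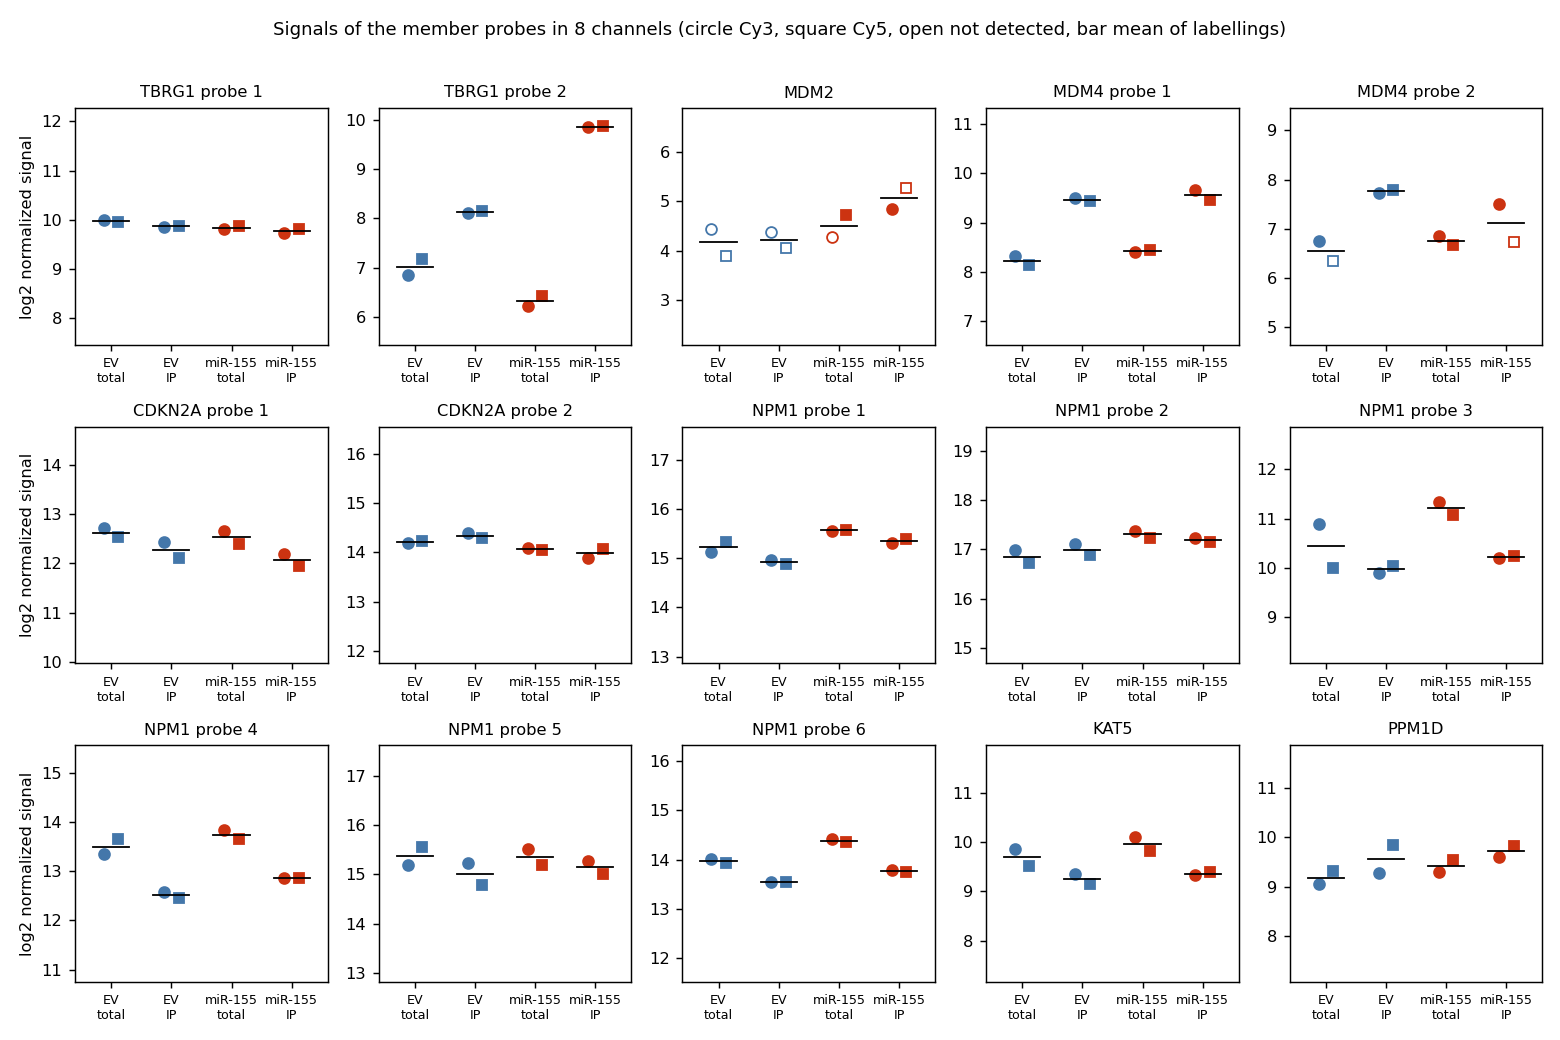
Log2 normalized signal (y axis) of the 15 member probes in the 4 conditions (x axis), blue for EV-ST486 and red for miR-155-ST486, circles Cy3 and squares Cy5, open symbols not detected and bars the mean of the labellings; every panel spans the same number of log2 units. TBRG1 probe 2 is the panel in which the miR-155 IP signal stands highest above the miR-155 total signal, and TBRG1 probe 1 is level.

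CDKN2A encodes ARF from one reading frame and the cell cycle inhibitor p16 from another, and which of these transcripts its probes read was not tested. Probe 1 (A_23_P43484, NM_058197) is printed in 10 spots per array, and all 80 of its 80 spot readings were detected. The coefficient of variation over these spots was between 3.06% and 19.4% in the 8 channels, with a median of 4.14%, which gives the precision of repeated spots. Its normalized signals were 6723 and 5921 in EV total, 5579 and 4414 in EV IP, 6459 and 5398 in miR-155 total and 4702 and 3927 in miR-155 IP. The IP signal lay below the total signal of the same dye in both vectors. IP/T was 0.787 in EV-ST486 cells and 0.728 in miR-155-ST486, and the miR-155/EV ratio was 0.925, nearly the same in both orientations (0.924 and 0.926).

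CDKN2A probe 2 (A_23_P43490, also NM_058197) had total signals of 18654 and 19154 with EV and of 17511 and 16911 with miR-155, and IP signals of 21376 and 20014 and of 15233 and 17126. The IP signals of the vectors did not overlap. IP/T was 1.09 with EV (1.12 and 1.07) and 0.939 with miR-155 (0.901 and 0.978), so it lay above 1 on both EV arrays and below 1 on both miR-155 arrays, with a miR-155/EV ratio of 0.858. Both CDKN2A probes had lower total and lower IP signals with miR-155 in both dyes, by 0.10 and 0.14 log2 units in the total and by 0.21 and 0.36 in the IP fraction.

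NPM1, the nucleolar chaperone that binds ARF, was read by 6 probes, the most of any member. It has many processed copies in the genome, and signals of probes that share sequence with them are uncertain. Probes 1, 2, 5 and 6 carry NM_002520, and probes 3 and 4 carry NM_199185. 0 of the 6 had an IP/T ratio reaching 2 in either vector, and the ratio was below 1 in both vectors for 5 of 6, the exception being probe 2 with 1.1 in EV-ST486 cells and 0.930 in miR-155-ST486. Probes 3 and 4 had the lowest values of all members, 0.721 and 0.510 with EV and 0.505 and 0.544 with miR-155.

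NPM1 probe 3 had total signals of 1901 and 1021 with EV and of 2596 and 2157 with miR-155, and IP signals of 956 and 1055 and of 1175 and 1214. Its EV total labellings differed by 1.86-fold, close to the limit of 2 for a probe to be kept, and its miR-155/EV ratio was 0.70, with 0.581 and 0.842 in the orientations. NPM1 probe 4 had total signals of 10371 and 12852 with EV and of 14555 and 12816 with miR-155, and IP signals of 6138 and 5641 and of 7387 and 7482. Its IP signals lay well below its total signals in every array. The miR-155/EV ratios of the 6 probes ran from 0.70 to 1.12, and 3 were below 1 and 1 above 1 in both orientations.

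The total signal of NPM1 was higher with miR-155 in both dyes for 4 of 6 probes, and its IP signal for 6 of 6. Over all kept probes 37.3% had a higher total signal in both dyes and 34.4% a higher IP signal. The log2 differences in the total fraction were 0.34, 0.45, 0.76, 0.24, -0.03 and 0.41 for probes 1 to 6. These probes share a gene and are not separate measurements of it, and the vectors lay on different slides.

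MDM2, the ubiquitin ligase that targets p53 and is itself a p53 target, could not be measured. Its probe (A_23_P502750, NM_002392) is printed in 10 spots per array, and 2 of 80 spot readings were detected, 1 in miR-155 total labelled with Cy5 and 1 in miR-155 IP labelled with Cy3. The spot signals ran from 9.78 to 69.1 before normalization, and their coefficient of variation from 23.7% to 66.2%. By repeated spots the probe was thus noisy where CDKN2A probe 1, printed as often, was not. The probe was not well above background in either labelling of the EV samples and in 1 of the 2 labellings of each miR-155 sample, and its Cy3 total signal was lower with miR-155 (19.4) than with EV (21.8). Neither a fold between vectors nor an IP/T ratio is therefore given for it.

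MDM4, the relative of MDM2 that masks the p53 activation domain, was the other member with IP/T ratios reaching 2. MDM4 probe 1 (A_23_P103503, NM_002393) had total signals of 319 and 281 with EV and of 340.5 and 350.0 with miR-155, and IP signals of 720.4 and 698 and of 814 and 700.0. Every IP signal was above every total signal. IP/T was 2.37 with EV (2.56 and 2.19) and 2.19 with miR-155 (2.33 and 2.06), and the miR-155/EV ratio was 0.924 (0.908 and 0.940).

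MDM4 probe 2 (A_24_P362432, NM_002393) was dim and was detected in 6 of 8 channels. Its total signals were 108 and 81.2 with EV and 115 and 102 with miR-155, and its IP signals were 211 and 222 with EV and 181 and 106 with miR-155. The Cy5 labellings of EV total and of miR-155 IP were those not detected. IP/T was 2.31 with EV (2.60 and 2.05) and 1.28 with miR-155 (1.77 and 0.922), and the miR-155/EV ratio of 0.552 (0.680 and 0.449) was the lowest of the members. The miR-155 IP labellings differed by 1.70-fold. The ratio ranged from 0.381 with the Cy5 labellings alone to 1.02 with normexp, high backgrounds replaced, loess and Aquantile, where it was no longer below 1. The MDM4 probes thus gave similar IP/T ratios in EV-ST486 cells and different ones in miR-155-ST486, and which transcripts each reads was not tested.

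KAT5, the catalytic subunit of the TIP60 acetyltransferase complex, was read by 1 probe (A_23_P138849, NM_006388). Its total signals were 926 and 734 with EV and 1104 and 899.6 with miR-155, and its IP signals were 653 and 569.9 and 641 and 669. All IP signals were below all total signals. IP/T was 0.740 in EV-ST486 cells and 0.657 in miR-155-ST486, and the miR-155/EV ratio was 0.888 (0.80 and 0.985).

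PPM1D, the phosphatase WIP1 that switches off the p53 response, was read by 1 probe (A_32_P150030, NM_003620). Its total signals were 533 and 633 with EV and 628 and 744 with miR-155, and its IP signals were 617 and 919 and 778 and 913. Cy5 signals were above Cy3 signals in every sample. IP/T was 1.30 in EV-ST486, with 0.974 and 1.72 in the orientations, and 1.23 in miR-155-ST486, with 1.05 and 1.45. Its miR-155/EV ratio was 0.951 (1.07 and 0.844).

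**Figure D2:**
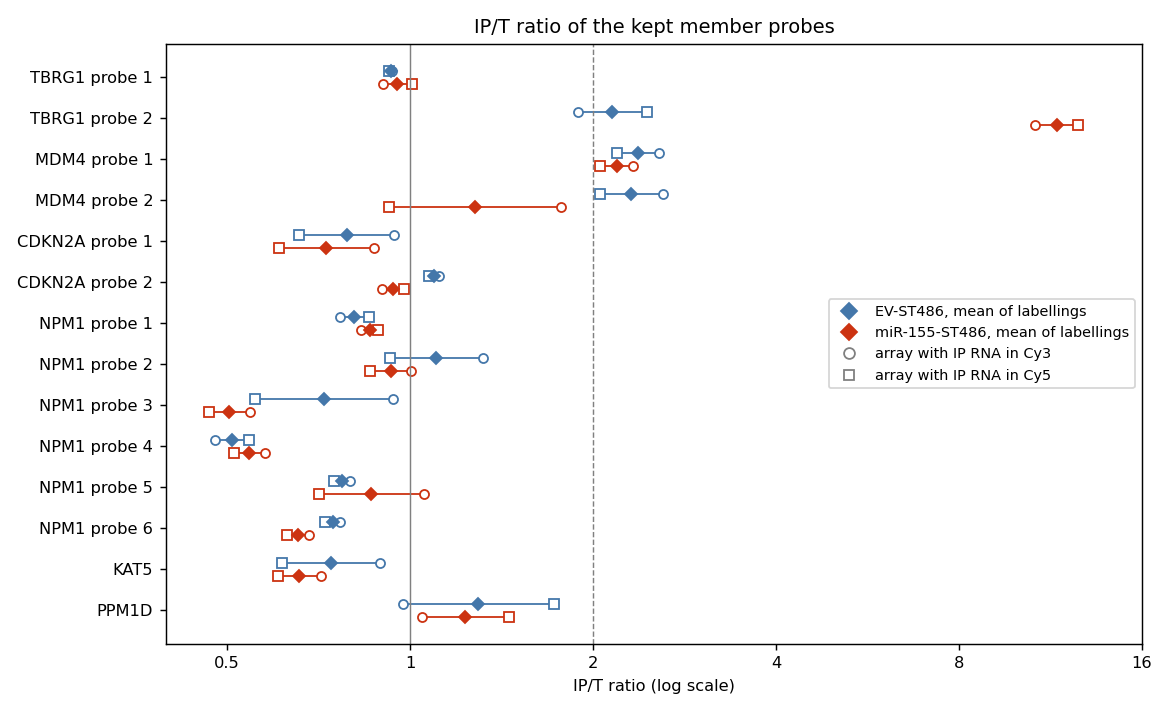
IP/T ratio (x axis, log scale) of the 14 kept member probes, blue for EV-ST486 and red for miR-155-ST486, with diamonds for the mean of the labellings and open circles and squares for the arrays with IP RNA in Cy3 and in Cy5. The solid line marks 1 and the dashed line 2, and the miR-155 value of TBRG1 probe 2 (11.6) is the one set far apart.

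Read together, 3 of 14 member probes had an IP/T ratio reaching 2 in EV-ST486 (TBRG1 probe 2 and both MDM4 probes), where 12.1% of all kept probes did. In miR-155-ST486 2 of 14 did (TBRG1 probe 2 and MDM4 probe 1), beside 12.2% of all, and the same 2 of 14 passed in both vectors, beside 10.2%. These shares are near the background for so few probes, and with normexp 0 of 14 reached 2 in EV-ST486. Only MDM4 probe 1 among the members met the limit on each array of both vectors, as 8.2% of all probes did. An IP/T ratio of at most 0.5 was found for 0 of 14 in EV-ST486 cells (10% of all) and 0 of 14 in miR-155-ST486 (9.83%). The IP/T ratio was below 1 in both vectors for 8 of 14 (52.5% of all), 5 of them NPM1 probes. A miR-155/EV ratio reaching 2 was found for 1 of 14, TBRG1 probe 2 (1.15% of all), which is the probe the genes were gathered around. A ratio of at most 0.5 was found for 0 of 14 (0.477%).

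The member probes had a median log2 miR-155/EV ratio of -0.11, beside -0.02 over all kept probes, and a median log2 IP/T ratio of -0.21 in EV-ST486 cells and -0.16 in miR-155-ST486, beside -0.15 and -0.18. The ratio was below 1 in both orientations for 8 of 14 probes (32.7% of all) and above 1 for 2 of 14, TBRG1 probe 2 and NPM1 probe 1 (26.7%). In 3 of the 6 measured genes, TBRG1, MDM4 and CDKN2A, a pair of probes reads 1 gene, and NPM1 is read by 6 probes. Probes of 1 gene are not independent, and NPM1 gave 3 of the 8 ratios below 1.

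**Figure D3:**
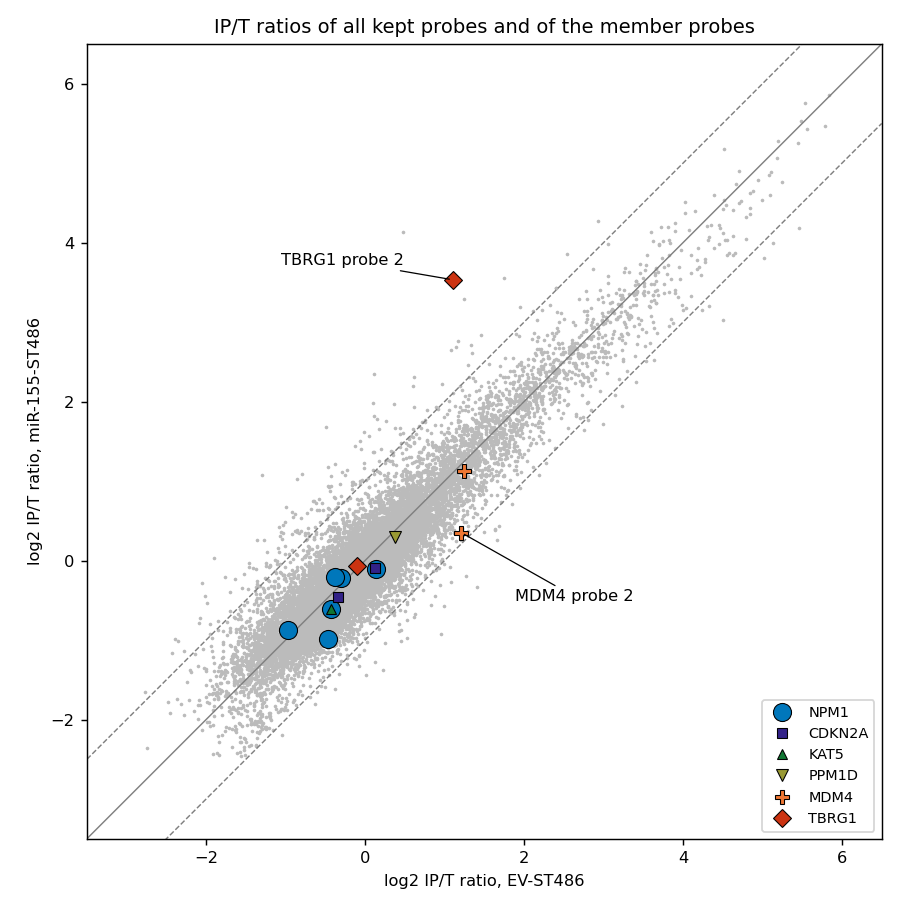
Log2 IP/T ratio in EV-ST486 cells (x axis) and in miR-155-ST486 (y axis) of the 15529 kept probes (grey) and the 14 kept member probes (colors and shapes by gene). The solid line marks equal ratios and the dashed lines a miR-155/EV ratio of 2 and of 0.5, and TBRG1 probe 2 lies far above the upper dashed line while the other 13 lie between the lines.

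The fractions were then compared between vectors one at a time. The total signal was higher with miR-155 in both dyes for 8 of 14 member probes (37.3% of all), both MDM4 probes, NPM1 probes 1, 2, 3 and 6, KAT5 and PPM1D, and lower for 4 (34.5% of all), both TBRG1 and both CDKN2A probes. In TBRG1, MDM4 and CDKN2A both probes of the gene thus differed in the same direction in the total fraction. The IP signal was higher in both dyes for 8 of 14 (34.4% of all) and lower for 4 (34.2% of all). Of the 8 higher ones, 6 were the probes of NPM1, which read 1 gene, and the others were TBRG1 probe 2 and MDM4 probe 1. TBRG1 probe 2 was the single member whose total signal was lower and whose IP signal was higher in both dyes with a miR-155/EV ratio reaching 2, as were 0.663% of all kept probes. MDM4 probe 2 had the opposite pattern, with total signals higher by 0.09 and 0.33 log2 units and IP signals lower by 0.23 and 1.06. The larger difference of each pair rests on a Cy5 labelling that was not detected.

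**Figure D4:**
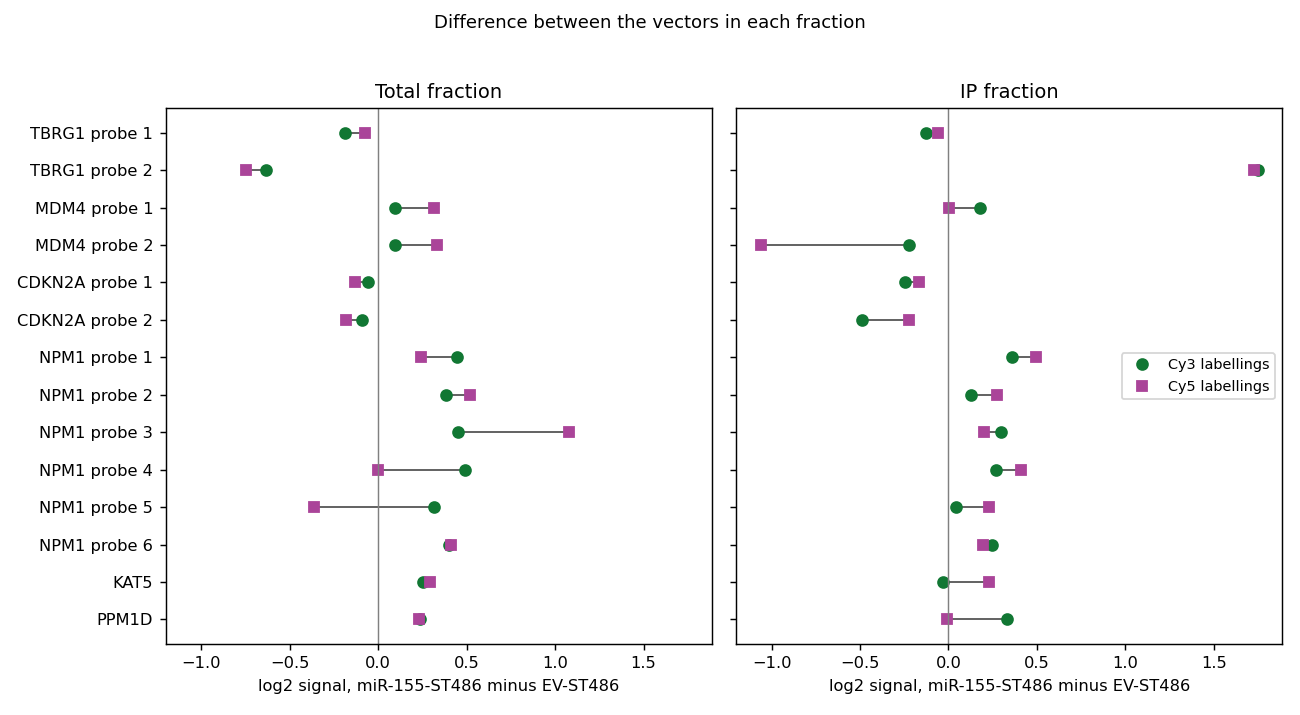
Log2 signal of miR-155-ST486 minus EV-ST486 (x axis) in the total fraction (left) and the IP fraction (right) for the 14 kept member probes, green circles for Cy3 and purple squares for Cy5 labellings. TBRG1 probe 2 lies furthest left of 0 in the total and furthest right in the IP fraction, and MDM4 probe 2 lies right of 0 in the total and left of 0 in the IP fraction.

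The wider pathway was read from 4 gene lists that hold none of the members. Of 35 regulators of p53, 33 had kept probes, 45 in all, and 0 of these had a miR-155/EV ratio reaching 2 or of 0.5 and less. The highest ratios were 1.49 for COP1 probe 1, a ubiquitin ligase of p53, 1.36 for SETD7 probe 2, a lysine methyltransferase, and 1.33 for TP53BP1, a DNA damage adaptor. The lowest were 0.575 for UBE4B, 0.721 for TRIM24, both ubiquitin ligases, and 0.736 for TP53BP2, the p53-binding ASPP2. Over the alternatives to the processing that of TP53BP2 crossed 1 (0.516 to 1.05), and the other ratios named here did not. IP/T reached 2 for 2 of 45 probes in EV-ST486 (12.1% of all kept probes), both of COP1 (2.46 and 2.92), and for 3 in miR-155-ST486 (12.2% of all), with SETD7 probe 2 (2.10) the added one.

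Of 20 regulators and partners of ARF, 17 had kept probes, 24 in all, again with 0 at a ratio reaching 2 or of 0.5 and less. The highest ratios were those of BMI1 probe 2 (1.79), a Polycomb repressor of the CDKN2A locus, and E2F3 (1.51), a transcription factor. The lowest were TOPORS (0.627), a ubiquitin and SUMO ligase, UBTF probe 2 (0.745), a ribosomal RNA gene activator, and CBX7 probe 2 (0.777), another Polycomb repressor. Over the alternatives the ratios of TOPORS (0.384 to 1.02) and CBX7 probe 2 (0.716 to 1.23) crossed 1. Those of BMI1 probe 2, E2F3 and UBTF probe 2 did not. IP/T reached 2 in both vectors for 4 of 24 probes (10.2% of all kept probes), both of CBX7, that of E2F3 and that of DMTF1, an activator of the ARF promoter. DMTF1 (named after its values were seen) had IP/T ratios of 11.7 and 14.4. BMI1 probe 2 was dim and was detected in 7 of 8 channels. BMI1 probe 1, with the same identifier, gave a miR-155/EV ratio of 1.09 (1.29 and 0.926).

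Of 17 subunits of the TIP60 complex other than KAT5, 14 had kept probes, 21 in all. Their miR-155/EV ratios ran from 0.659 (MORF4L2 probe 2) to 1.31 (RUVBL1 probe 1). The next were 0.792 for MEAF6 probe 1 and 0.874 for EPC2 at the lower end, and 1.27 for MORF4L1 probe 3 and 1.20 for RUVBL2 at the upper end. Each of these ratios crossed 1 over the alternatives, that of MORF4L2 probe 2 running from 0.505 to 1.17 and that of RUVBL1 probe 1 from 0.849 to 1.69. IP/T reached 2 in both vectors for 6 of 21 (10.2% of all kept probes), the probe of EPC2 and those of the related MORF4L1 (probes 1 to 3) and MORF4L2 (probes 1 and 2). Probes of 1 gene are not independent. KAT5 itself stayed below 1 in both vectors. The total signal was higher with miR-155 in both dyes for 14 of 21 probes (37.3% of all kept probes) and lower for 3 (34.5% of all).

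Of 40 p53 target genes, 28 had kept probes, 30 in all. IP/T reached 2 for 11 of these 30 probes in EV-ST486 cells (12.1% of all kept probes), for 12 in miR-155-ST486 (12.2% of all) and for 9 in both (10.2% of all). The median log2 IP/T ratio was 0.37 in EV-ST486 cells and 0.55 in miR-155-ST486, beside -0.15 and -0.18 over all kept probes. CDKN1A, which encodes the cell cycle inhibitor p21, had IP/T ratios of 3.78 and 3.87 on probe 1 and a miR-155/EV ratio of 1.02 (0.845 and 1.24), and its probe 2 did not pass the filters. 1 of 30 probes had a miR-155/EV ratio reaching 2, IER5 probe 1, of an immediate early response gene, with IP/T ratios of 1.11 and 3.44 and a miR-155/EV ratio of 3.09 (2.75 and 3.48), which ran from 2.15 to 4.45 over the alternatives. IER5 is on the list of miR-155 targets that the study drew from these samples, so it is not independent of it.

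The other highest ratios of the p53 targets were 1.85 for XPC, a DNA repair factor that was detected in 5 channels and ranged from 0.897 to 3.82 between orientations, and 1.40 for TP53INP1. The lowest were 0.559 for FAS, the death receptor, 0.631 for RRM2B, a ribonucleotide reductase subunit, and 0.633 for BBC3 probe 2, which encodes PUMA. FAS had mean signals of 40.7 in EV total, 487 in EV IP, 57.2 in miR-155 total and 383 in miR-155 IP. Its IP/T ratios were 11.96 and 6.69, on dim total signals. Over the 14 alternatives its IP/T ratio ran from 1.33 to 13.4 with EV and from 1.23 to 7.94 with miR-155. Over the 4 lists the median log2 miR-155/EV ratios were -0.06 for the p53 regulators, -0.04 for the ARF list, 0.00 for the TIP60 subunits and 0.02 for the p53 targets.

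TBRG1 probe 2 was last set beside the other genes that the study followed up, which were chosen on these arrays as well. DET1, part of a ubiquitin ligase, had the one higher miR-155/EV ratio of all kept probes, 12.6 (13.9 and 11.3), with IP/T ratios of 1.40 and 17.5. TRIM32, a ubiquitin ligase, had ratios of 5.16 and 4.52 on its probes and IP/T ratios below 1 in EV-ST486 (0.408 and 0.710). HOMEZ, a homeobox gene, had 4.71 and 2.86, and JARID2, a Polycomb cofactor and known miR-155 target, had 3.02. PSIP1, a chromatin reader, had 4.15 on probe 1 but 0.802 and 0.539 on probes 2 and 3. Probe 1 carries NM_021144, by the study's description the isoform with the predicted miR-155 sites. Probes 2 and 3 carry NM_033222, and probe 3 was detected in 5 of 8 channels. TBRG1 and PSIP1 thus both had probes of the same gene that gave different ratios.

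The genes whose 8-channel pattern was most like that of TBRG1 probe 2 were found by the Euclidean distance between mean-centered log2 signals, over 11042 kept probes of other genes with a symbol. They were PSIP1 (probe 1, distance 0.484), TAB2 (0.847), JARID2 (0.871), USPL1 (0.944) and DET1 (0.998), where the median distance was 4.01. TBRG1 probe 1 lay at 3.92. These 5 probes had IP/T ratios from 1.40 to 2.75 with the empty vector, which went from 6.44 to 17.5 with miR-155. The ratios come from the channels that set the distances, so their likeness to TBRG1 probe 2 follows from the choice. The channels shared their arrays, so the distances are a description.

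**Figure D5:**
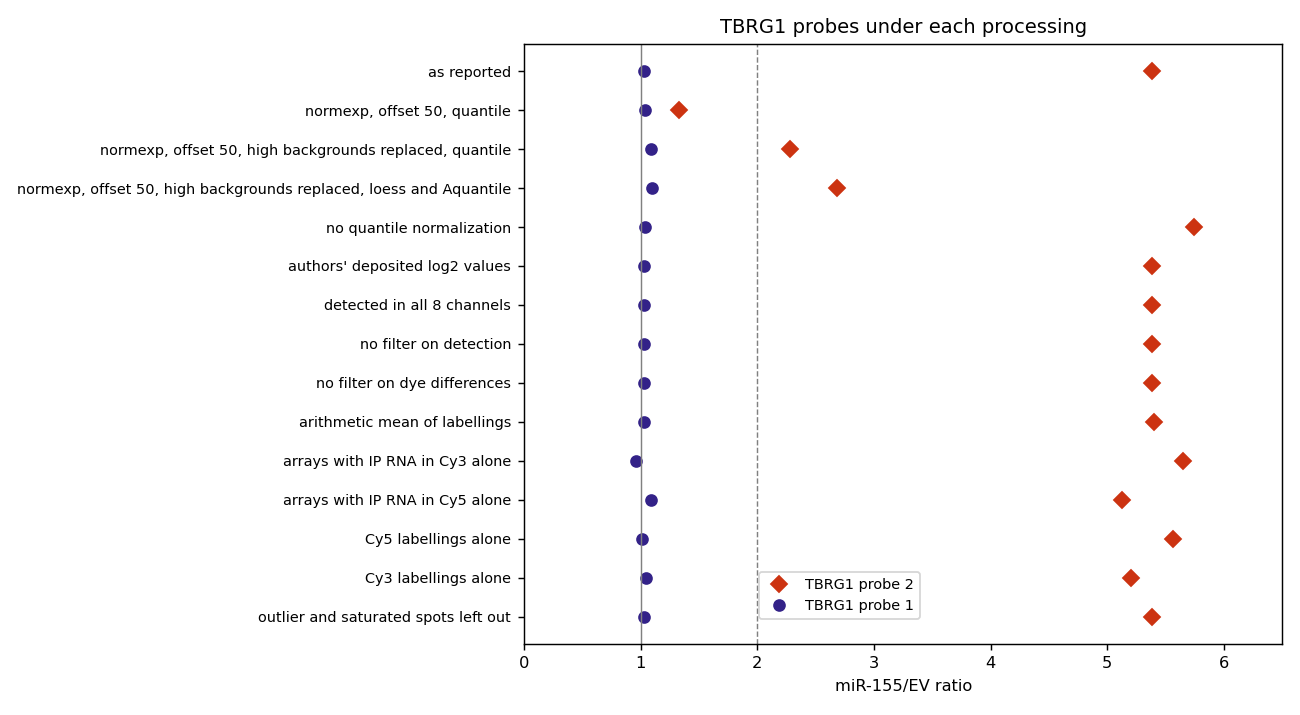
MiR-155/EV ratio (x axis) of TBRG1 probe 2 (red diamonds) and TBRG1 probe 1 (blue circles) under each processing of the arrays (y axis), with lines at 1 and 2. Probe 1 stays near 1 throughout, and probe 2 lies between 5.12 and 5.74 except under the normexp settings, where it is 1.33, 2.28 and 2.68. The changes of filter leave both ratios as reported by construction.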

How the data were processed

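The authors hybridized Cy3- and Cy5-labelled RNA of 4 samples on Agilent Human Whole Genome arrays. The deposited files hold spot intensity values, which the authors extracted with Agilent Feature Extraction 10.5.1.1 (named in the submitters' processing notes). Per the file headers their background was subtracted and their dyes were balanced array by array. The other deposited columns used here were flags for detection, outliers and saturation. The authors also deposited log2 values, quantile-normalized and filtered by them with GeneSpring. The file of an array was deposited once for each dye, and the channel of the sample's dye was used.

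Control spots were left out, spots of a probe averaged, signals under 1 set to 1, and log2 signals quantile-normalized over the 8 channels. Probes detected in 4 channels or more, whose labellings of a sample differed by no more than 2-fold, were kept (15529 of 41000). The means of the labellings gave IP/T and miR-155/EV ratios. As a check, 99.9% of the deposited log2 values of the 14446 shared probes lay within 0.05. Symbols came from RefSeq identifiers (23958 probes matched, 11044 of those kept), with names only and no gene coordinates.

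With 1 RNA sample per condition nothing was tested, and the number of arrays limits the precision. Lower bounds for probes not well above background used normexp with high local backgrounds replaced, loess and Aquantile, the higher of the dim probe's signal and the lowest signal well above background serving as floor. Alternatives were other background corrections and normalizations, filters, averages, dye orientations, labellings, flags and thresholds. The steps were tested on simulated data.

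The members and the gene lists were chosen with earlier results of these data known. Named are all member probes, genes of the lists with a miR-155/EV ratio reaching 2 or of 0.5 and less, the 3 highest and 3 lowest of each list, CDKN1A, the 5 other genes followed up by the study and the 5 genes with the pattern nearest to TBRG1 probe 2. 2 genes that this rule names are not reported here. The software was R 4.3.3 with limma 3.58.1, and Python 3.11.15 with matplotlib 3.10.9, pandas 2.3.3 and numpy 2.4.6.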

Additional observations from a re-analysis of the deposited data

Results flagged for a closer look

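In each case below every labelling or array of one group moved one way and every one of the other the opposite way. With 1 RNA sample per condition these differences were not tested.

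TBRG1 probe 2 was lower with miR-155 in the total fraction and higher in the IP fraction in both dyes, with a miR-155/EV ratio of 5.38. MDM4 probe 2 was higher in the total and lower in the IP fraction, with a ratio of 0.552, but 2 of its 8 channels were not detected. CDKN2A probe 2 had IP/T ratios above 1 on both EV arrays (1.12 and 1.07) and below 1 on both miR-155 arrays (0.901 and 0.978), with a ratio of 0.858. This holds by array only, as its IP/T ratio within Cy5 was 1.01 with miR-155. CDKN2A probe 1, with the same identifier, was below 1 in both vectors (0.787 and 0.728).

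Of the gene lists, BMI1 probe 2 gave IP/T ratios of 0.668 and 0.694 with EV and of 1.23 and 1.20 with miR-155. Its total signal was lower and its IP signal higher with miR-155 in both dyes, with a ratio of 1.79. It was dim and was detected in 7 of 8 channels. BMI1 probe 1, with the same identifier, had a ratio of 1.09 (1.29 and 0.926). COP1 probe 1 and SETD7 probe 2 were, like BMI1 probe 2, lower in the total and higher in the IP fraction, with ratios of 1.49 and 1.36. UBTF probe 2, TRIM24 and FAS were higher in the total and lower in the IP fraction, with ratios of 0.745, 0.721 and 0.559. The total signals of FAS were dim. Over the alternatives the ratio of FAS ran from 0.422 to 1.11, that of MDM4 probe 2 from 0.381 to 1.02 and that of CDKN2A probe 2 from 0.759 to 1.05.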

How the results depend on the processing

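No paired analysis was possible because the replicate numbers are the dye labellings of 1 RNA sample per condition and no test was run. The member ratios that reached 2 as reported stayed above 1 under the 14 alternatives to the processing, but ratios near 1 crossed 1, and MDM4 probe 2 went from 0.552 to 1.02 with normexp, high backgrounds replaced, loess and Aquantile. The miR-155/EV ratio of TBRG1 probe 2 was 1.33 with normexp, offset 50 and quantile normalization, 2.28 with high local backgrounds replaced and 2.68 with these replaced and loess and Aquantile. Under the same 3 settings IP/T of this probe was 1.08, 1.25 and 1.17 with EV and 1.43, 2.86 and 3.15 with miR-155. It ranked 224, 31 and 23 among the probes then kept. The member probes with an IP/T ratio reaching 2 fell to 0, 0 and 0 in EV-ST486 cells and to 0, 1 and 1 in miR-155-ST486, and those with a miR-155/EV ratio reaching 2 to 0 under the first. How far the offset, the replaced backgrounds or the use of median spot signals set these values was not tested. The other 11 settings gave a miR-155/EV ratio between 5.12 and 5.74, and TBRG1 probe 1 lay between 0.965 and 1.1 under all 14. Of the 14 alternatives, the changes of filter use the same signals and cannot move the ratio of a single probe. The single dyes and dye orientations are parts of the reported mean.

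The median log2 miR-155/EV ratio of member probes, -0.11 as reported, was -0.026, -0.020 and 0.015 under the normexp settings, -0.077 without quantile normalization, -0.142 with the deposited log2 values and -0.137 without outlier and saturated spots. With either dye's labellings left out it was between -0.171 and -0.054, the member probes with an IP/T ratio reaching 2 in miR-155-ST486 numbered between 1 and 2, and those with a miR-155/EV ratio of at most 0.5 between 0 and 1. The latter count was 1 with the arrays with IP RNA in Cy5 alone. With a threshold of 1.5 in place of 2, which widens the low limit beyond 0.5, 1 member probe passed it. In each case it was MDM4 probe 2, with ratios of 0.381 (Cy5 labellings), 0.449 (IP RNA in Cy5) and the reported 0.552 (threshold of 1.5). At a threshold of 3 the member probes passing in IP/T numbered 0 in EV-ST486 cells and 1 in miR-155-ST486. For genes of the lists, those the study followed up and those nearest in pattern, 10 of 10 miR-155/EV ratios and 60 of 61 IP/T ratios that reached 2 stayed above 1 under each alternative that gave a value, and 3 and 29 of them stayed at 2 or more. The exception was CCNG2 probe 2, a p53 target named after its values were seen, whose IP/T ratio in EV-ST486 was 0.995 with normexp and quantile normalization and 0.984 with high backgrounds also replaced. MDM4 probe 2 was not well above background in 2 of 8 channels, and MDM2 could not be measured.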

Other observations

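Among the p53 targets the highest IP/T ratios were those of BTG2, an antiproliferative gene, named here after its values were seen. Its mean signals were 1226 in EV total and 53456 in EV IP, and 935 and 35714 in miR-155-ST486. IP/T was 43.6 (38.5 and 49.4) with EV and 38.2 (32.3 and 45.1) with miR-155, and the miR-155/EV ratio was 0.876 (0.840 and 0.914). E2F7, a cell cycle repressor named in the same way, had IP/T ratios of 12.7 and 10.6 and a ratio of 0.831.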
